A study of Mus musculus with 9 samples.

Results

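The genes described here are the troponin subunits and sarcomeric tropomyosins of muscle, in their fast and slow forms. They comprise troponin I (*Tnni2* fast, *Tnni1* slow), troponin T (*Tnnt3* fast, *Tnnt1* slow, *Tnnt2* cardiac and developmental), troponin C (*Tnnc2* fast, *Tnnc1* slow and cardiac) and tropomyosin (*Tpm1* fast alpha, *Tpm3* slow alpha, *Tpm2* beta). The 10 symbols were listed by name and matched through their Ensembl identifiers to the count table, where all 10 were found among 55487 genes.

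RNA of whole mouse gastrocnemius, a mixed calf muscle made mostly of fast fibres, was sequenced in 9 libraries. The labels give all mice as wild-type C57BL/6. In the 4 Control libraries the mice walked in normal cages, in the 2 Unloading libraries the hind limbs had been lifted off the ground for 10 days by tail suspension, and in the 3 Reloading libraries the mice had walked normally again for 1 day after such a period of unloading. The same labels call every mouse male, whereas the methods speak of females being suspended, and no age is given. *Xist*, expressed from the inactive X chromosome, had between 0 and 5 read pairs in every library, and the Y-linked *Ddx3y* between 1013 and 1993. The labels do not say that each library came from another mouse, so p-values measure the spread between these libraries.

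In the thin filament, tropomyosin lies along actin and covers the sites that myosin binds. Calcium binding to troponin C releases the hold of troponin I, and troponin T ties the complex to tropomyosin, so that the filament switches on. Slow and fast fibres use different genes for most of these subunits, which sets how the filament answers calcium, and beta tropomyosin is found in both fibre types.

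Upstream sequences are shown for 3 slow members, whose levels varied together from library to library, as described further on. Of the 10 members, 8 had a window before the transcription start in the RefSeq-derived promoter table (GRCm38.p6). *Tnni2* and *Tnnt3* did not. Bases within an annotated exon of the gene were left out. Capitals mark E-boxes (CANNTG, bound by the MyoD family of muscle factors) and MCAT elements (CATTCC, bound by TEAD factors) on either strand. The runs are read 5′ to 3′ and lie at chr1:135799171-135799401 (plus strand) for *Tnni1*, at chr14:31208062-31208311 (plus strand) for *Tnnc1* and at chr3:90072401-90072648 (plus strand) for *Tpm3*. *Tnni1* and *Tpm3* had a pair of windows each, of which the one further upstream is shown.
Tnni1: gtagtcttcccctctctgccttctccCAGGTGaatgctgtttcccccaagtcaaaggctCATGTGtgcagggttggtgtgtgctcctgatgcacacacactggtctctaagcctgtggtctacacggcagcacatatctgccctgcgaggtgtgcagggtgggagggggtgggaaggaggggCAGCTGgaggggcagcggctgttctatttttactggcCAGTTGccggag
Tnnc1: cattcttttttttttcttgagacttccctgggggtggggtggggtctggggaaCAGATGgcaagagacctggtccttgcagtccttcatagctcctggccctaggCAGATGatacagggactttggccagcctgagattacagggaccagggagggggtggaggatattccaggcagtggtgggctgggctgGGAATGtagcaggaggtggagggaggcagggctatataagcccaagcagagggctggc
Tpm3: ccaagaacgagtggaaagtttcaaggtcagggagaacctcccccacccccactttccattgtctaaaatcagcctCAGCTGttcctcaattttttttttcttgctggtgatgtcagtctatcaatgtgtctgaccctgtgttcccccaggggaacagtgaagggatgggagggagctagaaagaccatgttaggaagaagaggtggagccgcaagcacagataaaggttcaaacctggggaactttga
The *Tnni1* run held 4 E-boxes, the *Tnnc1* run 2 E-boxes and 1 MCAT element, and the *Tpm3* run 1 E-box. Over the 250 bases before all 32851 RefSeq starts, 66.2% of windows held an E-box and 12.6% an MCAT element. A TATA box (TATAAA), which 12.4% of all windows held, was found among the members only in the full window of *Tnnt1*, 30 to 25 bases before the start. All but the first of these bases lie in an annotated exon of the gene. The MEF2 site and the CArG box were searched for by name and were found in 0.508% and 1.47% of all windows and in no window of a member. These matches are letters in a window and say nothing of binding.

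Depth ran from 9252443 to 19612101 read pairs assigned to genes, so that 1 read pair was worth 0.0510 to 0.108 counts per 1000000 (CPM) before scaling. The members together took 6.24 to 6.72% of all read pairs in Control, 6.44 to 6.46% in Unloading and 4.72 to 5.10% in Reloading. The share of mitochondrial read pairs also differed, at 9.36 to 10.6% in Control and Unloading and 6.49 to 6.75% in Reloading, and TMM scaling (trimmed mean of M-values) gave factors of 0.928 to 0.960 in the first 2 groups and 1.11 to 1.13 in Reloading. With library totals in place of TMM the median log2 fold change of all genes in Reloading against Unloading was 0.27 instead of 0.03, and 82.8% instead of 49.3% of called genes were higher. In Reloading against Control that median was 0.25 instead of 0.01, with 80.2% instead of 50.9% of called genes higher. Each fold change of a Reloading comparison is therefore to be read beside its value under library totals, which is given for the members. Fold changes of listed genes are given under TMM scaling alone, so which of those calls library totals keep is not shown. *Krt2*, a keratin of skin, had 1086 read pairs in Control 2 and 502 in Reloading 1 but at most 3 in the other libraries. The part of skin in the results was not tested beyond leaving both libraries out.

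All 10 members passed the filter on low counts. In Reloading against Unloading, 6 of the 10 fell and 0 rose (edgeR's quasi-likelihood test, adjusted p under 0.05), where 37.5% of all 14851 genes tested were called, 18.5% higher and 19.0% lower. In Unloading against Control, 2 of the 10 fell and 0 rose, where 9.90% of genes were called, 4.40% higher and 5.50% lower. In Reloading against Control, 9 of the 10 fell and 0 rose, where 43.5% of genes were called, 22.1% higher and 21.3% lower. In these 3 comparisons the 10 members had median log2 fold changes of -0.60, 0.01 and -0.62, beside 0.03, -0.00 and 0.01 for all genes tested. In none of the 3 did a member rise at an unadjusted p under 0.05 or with DESeq2, which called 5, 2 and 6 lower. Each group enters 2 of the 3 comparisons, so they are not independent of each other. Without Control 2 and Reloading 1, the libraries with skin transcripts, 5, 2 and 6 members fell.

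**Figure D1:**
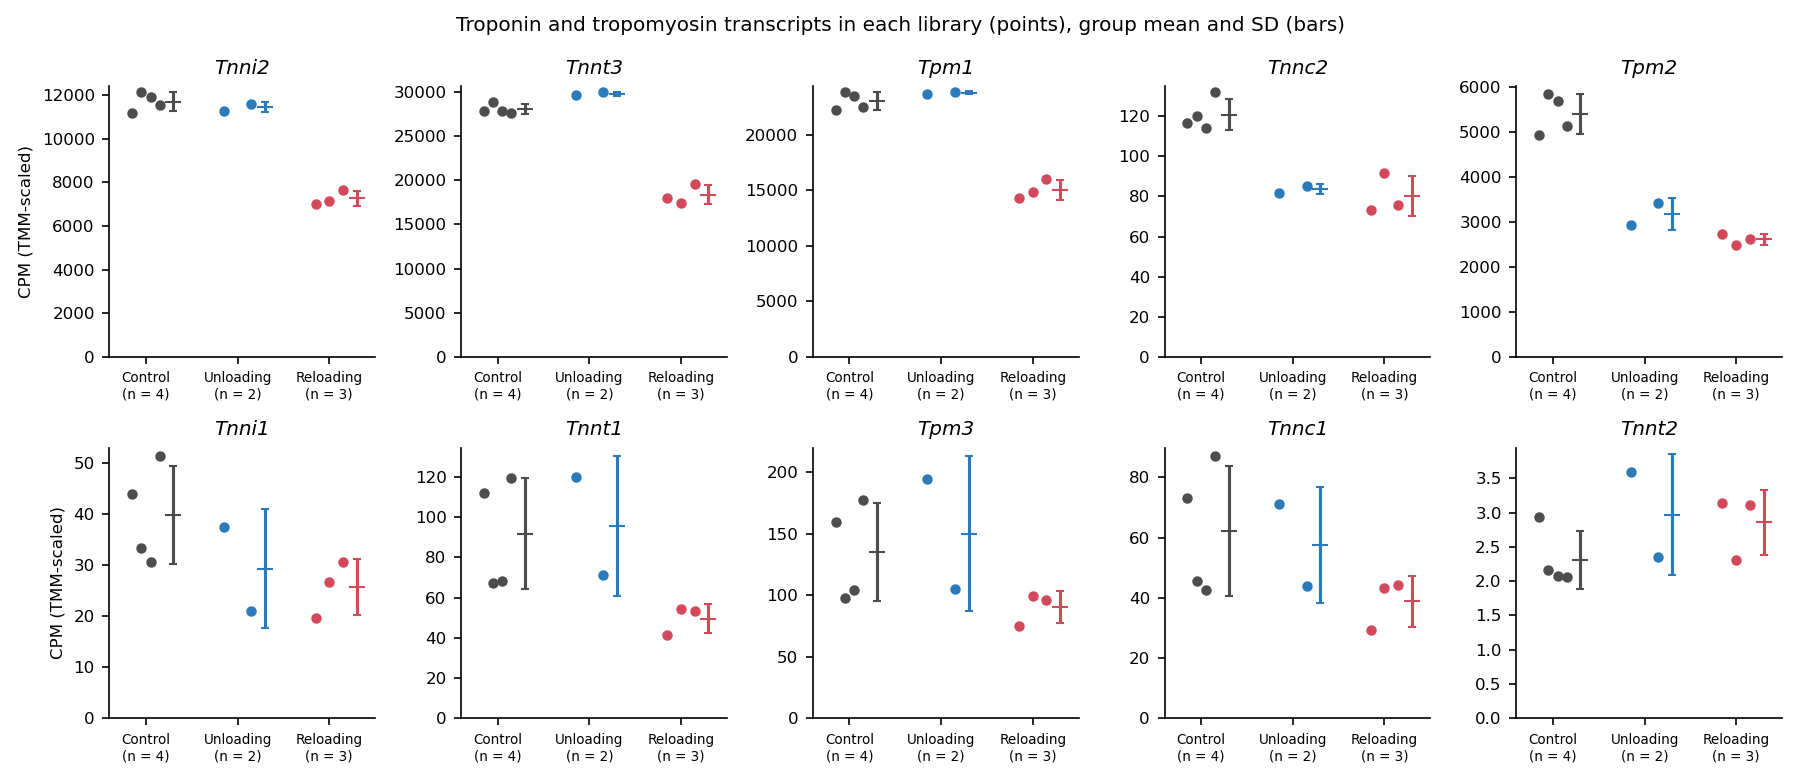
Level of each member in TMM-scaled CPM (vertical axis, starting at 0) in each library (points), with group mean and SD (bars) for 4 Control, 2 Unloading and 3 Reloading libraries. *Tnni2*, *Tnnt3* and *Tpm1* are low in Reloading, *Tpm2* and *Tnnc2* were already low in Unloading, and the slow members in the lower row spread widely within Control and Unloading.

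Fast troponin I fell with reloading, while after unloading its level lay within the range of Control. *Tnni2* (chr7:142441808-142444410, plus strand, GRCm38), the inhibitory subunit of fast fibres, had 11169, 12144, 11922 and 11535 CPM in Control, 11278 and 11601 CPM in Unloading, and 6985, 7124 and 7654 CPM in Reloading. All 3 Reloading libraries lay below all others. The level fell by 36.6% from Unloading to Reloading, a log2 fold change of -0.66 ± 0.07 (SE, edgeR adjusted p = 1.0e-05), and of -0.41 under library totals. Against Control it fell by 38.0% (-0.69 ± 0.06, edgeR adjusted p = 8.04e-07; -0.45 under library totals).

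Slow troponin I was far less abundant and more variable. *Tnni1* (chr1:135779434-135810989, plus strand) had 44.0, 33.3, 30.6 and 51.3 CPM in Control, 37.5 and 21.0 in Unloading, and 19.7, 26.8 and 30.5 in Reloading. The Reloading libraries all lay below the lowest Control library, but the highest of them only just. The difference of Reloading from Control was -0.62 ± 0.20 on the log2 scale (edgeR adjusted p = 0.0220), and it was no longer called without Control 1 (adjusted p = 0.0529), Control 4 (0.0751) or Reloading 1 (0.104), nor with library totals (-0.38, 0.132), DESeq2 (-0.65, 0.0822) or a robust fit (-0.62, 0.145). Without both libraries with skin transcripts it was -0.54 (adjusted p = 0.0658). Unloading differed from Control by -0.45 ± 0.23 and Reloading from Unloading by -0.17 ± 0.24, neither past the threshold (edgeR adjusted p = 0.227 and 0.611). Both rested on which Unloading library was used. The first was -0.91 without Unloading 1 and -0.08 without Unloading 2, and the second changed sign, at 0.29 without Unloading 1, -0.55 without Unloading 2 and 0.08 under library totals.

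Fast troponin T also fell with reloading. *Tnnt3* (chr7:142498836-142516009, plus strand), which lies 54426 bases beyond *Tnni2* on the same strand, had 27809, 28888, 27845 and 27638 CPM in Control, 29611 and 29969 CPM in Unloading and 18033, 17472 and 19565 CPM in Reloading. Reloading lay below every other library, and both Unloading libraries lay slightly above the highest Control library. The change from Unloading to Reloading was -0.70 ± 0.07 on the log2 scale, a drop of 38.4% (edgeR adjusted p = 6.18e-06; -0.45 under library totals), and that from Control was -0.61 ± 0.06 (adjusted p = 2.49e-06; -0.37 under library totals). The small excess in Unloading, 0.09 ± 0.07, did not pass the test (edgeR adjusted p = 0.472).

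With all libraries, slow troponin T showed the largest drop in Reloading against Unloading among the 10 members. Without Unloading 1 the log2 drop of *Tnnt3* was larger, at -0.71. *Tnnt1* (chr7:4504570-4516382, minus strand) had 112, 67.5, 68.4 and 119 CPM in Control, 120 and 71.0 CPM in Unloading and 41.4, 54.1 and 53.1 CPM in Reloading. Every Reloading library lay below every other library, although Control and Unloading each held high and low libraries. The log2 fold change was -0.94 ± 0.24 against Unloading (edgeR adjusted p = 0.00657; -0.69 under library totals) and -0.88 ± 0.21 against Control (adjusted p = 0.00316; -0.64 under library totals). Without Unloading 1, the higher of the Unloading pair, the first was -0.52 (adjusted p = 0.164). With a robust fit neither was called (adjusted p = 0.0870 and 0.0634).

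Cardiac troponin T was barely detected. *Tnnt2* (chr1:135836354-135852260, plus strand), which is used by the heart and by embryonic muscle and starts 25365 bases beyond the end of *Tnni1*, had 24 to 48 read pairs per library and between 2.06 and 3.59 CPM. Control held 2.93, 2.16, 2.07 and 2.06 CPM, Unloading 3.59 and 2.35 CPM and Reloading 3.14, 2.31 and 3.11 CPM, so that the groups overlapped. No comparison passed the test, with log2 differences from Control of 0.36 ± 0.24 in Unloading and 0.33 ± 0.22 in Reloading, and of -0.03 ± 0.25 between Reloading and Unloading. Of the alternatives, library totals alone led to a call, for Reloading against Control (0.57, edgeR adjusted p = 0.0462). The sign of the small Reloading to Unloading difference was not stable, with 0.21 under library totals, 0.28 without Unloading 1 and -0.34 without Unloading 2. Of 8 cardiac markers, 3 passed the filter. The summed level of these 3 ran from 4.29 to 5.98 CPM in Control, 5.16 to 5.35 in Unloading and 6.77 to 7.42 in Reloading. Their part in the level of *Tnnt2* was not tested.

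Fast troponin C was lower after unloading and stayed lower after reloading. *Tnnc2* (chr2:164777161-164779967, minus strand), the calcium sensor of fast fibres, had 117, 120, 114 and 132 CPM in Control, 81.8 and 85.3 CPM in Unloading and 73.2, 91.6 and 75.8 CPM in Reloading. All 5 Unloading and Reloading libraries lay below all 4 Control libraries, while Unloading and Reloading overlapped. The log2 fold change was -0.53 ± 0.09 in Unloading against Control (edgeR adjusted p = 0.00372) and -0.59 ± 0.08 in Reloading against Control (adjusted p = 4.23e-05; -0.35 under library totals), and -0.06 ± 0.10 in Reloading against Unloading (adjusted p = 0.661; 0.19 under library totals). Without Unloading 1 the first was -0.50 and no longer called (adjusted p = 0.0873). The level of *Tnnc2* itself cannot be set beside that of the other fast members. Of its 800 exonic bases, 592 (74.0%) are shared with exons of *Ube2c*, a ubiquitin-conjugating enzyme of the cell cycle on the opposite strand, and the unstranded counting left out read pairs that met both genes. *Ube2c* itself had 35 to 76 read pairs per library.

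*Tnnc1* (chr14:31208312-31211729, plus strand), the calcium sensor of slow and cardiac muscle, had 73.2, 45.6, 42.7 and 87.0 CPM in Control, 71.0 and 43.9 CPM in Unloading and 29.2, 43.2 and 44.3 CPM in Reloading. Its groups overlapped in every comparison. Reloading against Control was called at -0.66 ± 0.23 (edgeR adjusted p = 0.0302), but not without Control 1 (-0.58, adjusted p = 0.0785), Control 4 (-0.45, 0.108) or Reloading 1 (-0.50, 0.132). The call was also lost under library totals (-0.42, adjusted p = 0.143), with DESeq2 (-0.69, 0.116), with a robust fit (-0.66, 0.177) and without both libraries with skin transcripts (-0.62, 0.0535). The log2 difference was -0.55 ± 0.27 against Unloading (edgeR adjusted p = 0.122), but -0.18 without Unloading 1, -0.87 without Unloading 2 and -0.30 under library totals. Between Unloading and Control it was -0.11 ± 0.25 (edgeR adjusted p = 0.824), and it was above 0 without Control 4 (0.10) or Unloading 2 (0.20).

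Among the tropomyosins, the fast alpha form moved as fast troponins I and T did. *Tpm1* (chr9:67022590-67049406, minus strand) had 22237, 23868, 23490 and 22459 CPM in Control, 23667 and 23859 CPM in Unloading and 14292, 14806 and 16014 CPM in Reloading. Reloading stood clear of the other libraries, and Unloading lay within the range of Control. The drop from Unloading was 36.7% (log2 fold change -0.66 ± 0.08, edgeR adjusted p = 1.15e-05; -0.41 under library totals) and from Control 34.7% (-0.61 ± 0.06, adjusted p = 2.94e-06; -0.37 under library totals). Under every alternative that was tested, *Tnni2*, *Tnnt3* and *Tpm1* fell in both Reloading comparisons. *Tpm1* is also used by smooth muscle and other cells, and its transcripts were not told apart here.

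Beta tropomyosin fell already with unloading. *Tpm2* (chr4:43514711-43523765, minus strand) had 4923, 5845, 5681 and 5136 CPM in Control, 2916 and 3426 CPM in Unloading and 2725, 2473 and 2622 CPM in Reloading. The 3 groups did not overlap, with Control highest and Reloading lowest. From Control to Unloading it fell by 41.2% (log2 fold change -0.77 ± 0.09, edgeR adjusted p = 0.000301) and in Reloading it was lower still (-1.05 ± 0.08, adjusted p = 1.37e-07; -0.81 under library totals). The further step from Unloading to Reloading, -0.28 ± 0.09 (edgeR adjusted p = 0.0265), was -0.03 under library totals (adjusted p = 0.779) and was not called without Unloading 2 (-0.17, 0.264), Reloading 2 (-0.25, 0.0909) or Reloading 3 (-0.28, 0.0503).

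The slow alpha form was the least certain of the tropomyosins. *Tpm3* (chr3:90072649-90100902, plus strand) had 159, 97.4, 104 and 178 CPM in Control, 194 and 105 CPM in Unloading and 75.1, 99.1 and 96.2 CPM in Reloading. These counts cover the whole gene, which has a second RefSeq window at chr3:90079271-90079520. The slow muscle form was not told apart from other transcripts. The Reloading libraries overlapped with the low Control libraries and lay just below the lower Unloading library. Its log2 fold change was -0.73 ± 0.25 against Unloading (edgeR adjusted p = 0.0312) and -0.57 ± 0.21 against Control (0.0403). The first was -0.23 without Unloading 1 (adjusted p = 0.558), -1.12 without Unloading 2 (0.00534) and -0.61 without Reloading 1 (0.0984). The second was not called without Control 1 (-0.48), Control 4 (-0.41) or any 1 of the 3 Reloading libraries (-0.46 to -0.65). Under library totals they were -0.48 (adjusted p = 0.130) and -0.33 (0.212), with DESeq2 -0.76 (0.130) and -0.59 (0.149), with a robust fit -0.73 (0.179) and -0.57 (0.202), and without both libraries with skin transcripts -0.61 (0.0644) and -0.59 (0.0527), none of them called.

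**Figure D2:**
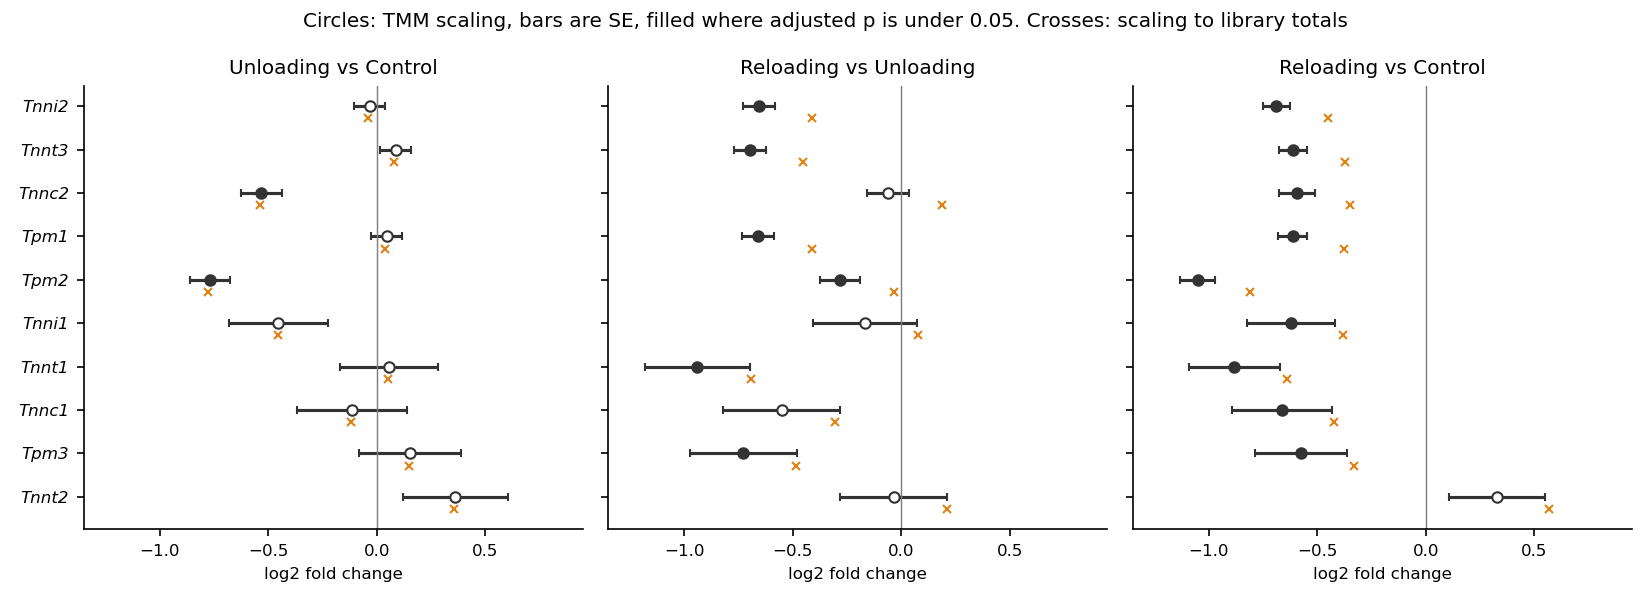
Log2 fold change (horizontal axis) of the 10 members in each comparison. Circles are TMM-scaled values with SE bars from 9 libraries, filled where the edgeR adjusted p is under 0.05, and crosses are values under library totals. *Tnni2*, *Tnnt3* and *Tpm1* lie near 0 in Unloading against Control and between -0.61 and -0.70 in the Reloading comparisons, while *Tpm2* and *Tnnc2* lie below 0 in Unloading against Control.

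The slow members rose and dipped together from library to library inside each group. In Control 1, Control 4 and Unloading 1 all of *Tnni1*, *Tnnt1*, *Tnnc1* and *Tpm3* were above their group means, and in Control 2, Control 3, Unloading 2 and Reloading 1 all were below. After each library was centred on its group, *Tnnt1* and *Tpm3* had r = 0.99 and *Tnnt1* and *Tnnc1* r = 0.98 over the 9 libraries, a description of points that share their library and its scaling. *Tpm2* ran the other way, with r = -0.95 against *Tnnt1* and -0.85 against *Tnni1*. The coefficient of variation within Control was 30.2% for *Tnnt1* and 34.7% for *Tnnc1*, against 3.68% for *Tnni2* and 2.03% for *Tnnt3*. *Myh7*, the slow myosin heavy chain, and *Myl2*, the slow regulatory light chain, followed the mean of the slow troponins with r = 0.95 and 0.97 after the same centring. Not every gene of slow or oxidative fibres did so. *Mb*, which encodes myoglobin, had r = -0.28 and *Ckmt2*, a mitochondrial creatine kinase, had r = -0.82. Over the listed slow-fibre genes r ran from that of *Ckmt2* to that of *Myl2*. The listed fast-fibre genes ran from -0.91 (*Pgam2*) to 0.78 (*Phka1*), so the pattern was not confined to slow genes. In whole muscle, fewer slow fibres and less slow RNA per fibre cannot be told apart.

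**Figure D3:**
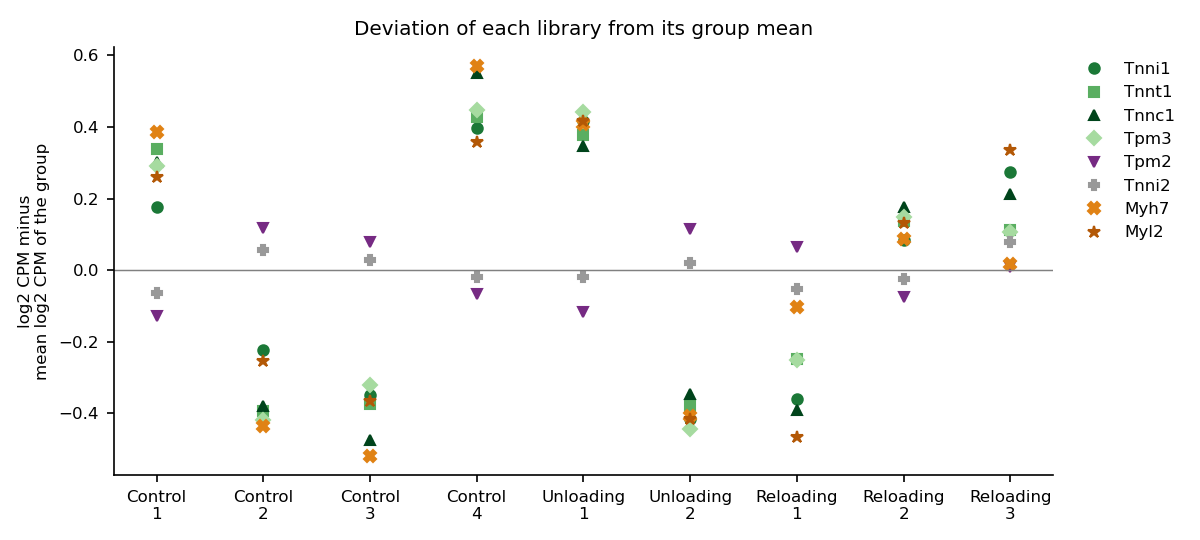
Deviation of each library from its group mean, in log2 CPM (vertical axis), for the 4 slow members, *Tpm2*, *Tnni2* and the slow myosin genes *Myh7* and *Myl2* in 9 libraries (horizontal axis). Slow genes lie together above 0 in Control 1, Control 4 and Unloading 1 and below 0 in Control 2, Control 3, Unloading 2 and Reloading 1, *Tpm2* lies on the opposite side, and *Tnni2* stays near 0.

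The slow form was a small part of troponin I and T in every group. Counted per length, *Tnni1* made up 0.142% ± 0.0379 (SD, n = 4) of troponin I transcripts in Control, 0.107% ± 0.0444 (n = 2) in Unloading and 0.146% ± 0.0258 (n = 3) in Reloading. *Tnnt1* made up 0.235% ± 0.0739 (n = 4) of *Tnnt1* and *Tnnt3* together in Control, 0.230% ± 0.0851 (n = 2) in Unloading and 0.194% ± 0.0286 (n = 3) in Reloading. *Tnnc1* made up 27.8% ± 6.14, 34.2% ± 8.25 and 27.0% ± 3.79 of troponin C in the same order, a share that the uncounted read pairs of *Tnnc2* raise. The groups overlapped in each share.

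The slow-to-fast ratio within a library, which does not depend on how libraries are scaled, did not separate the groups. Per 1000 *Tnni2* transcripts there were 1.64, 1.14, 1.07 and 1.85 of *Tnni1* in Control, 1.38 and 0.755 in Unloading and 1.17, 1.56 and 1.66 in Reloading. Per 1000 *Tpm1* transcripts there were 7.64, 4.35, 4.73 and 8.43 of *Tpm3* in Control, 8.76 and 4.70 in Unloading and 5.60, 7.13 and 6.41 in Reloading, each gene counted over all its transcripts. In both pairs Unloading and Reloading lay within or across the spread of Control. Over 4 pairs and 3 comparisons, 12 two-sided exact permutation tests gave p between 0.300 and 1.0 and adjusted p of at least 0.935. The smallest p the group sizes allow is 0.1 with 3 libraries against 2, 0.0667 with 2 against 4 and 0.0286 with 3 against 4. The mean log2 ratio of *Tnnt1* to *Tnnt3* differed by -0.21 between Reloading and Unloading, where the SD within a group reached 0.55.

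**Figure D4:**
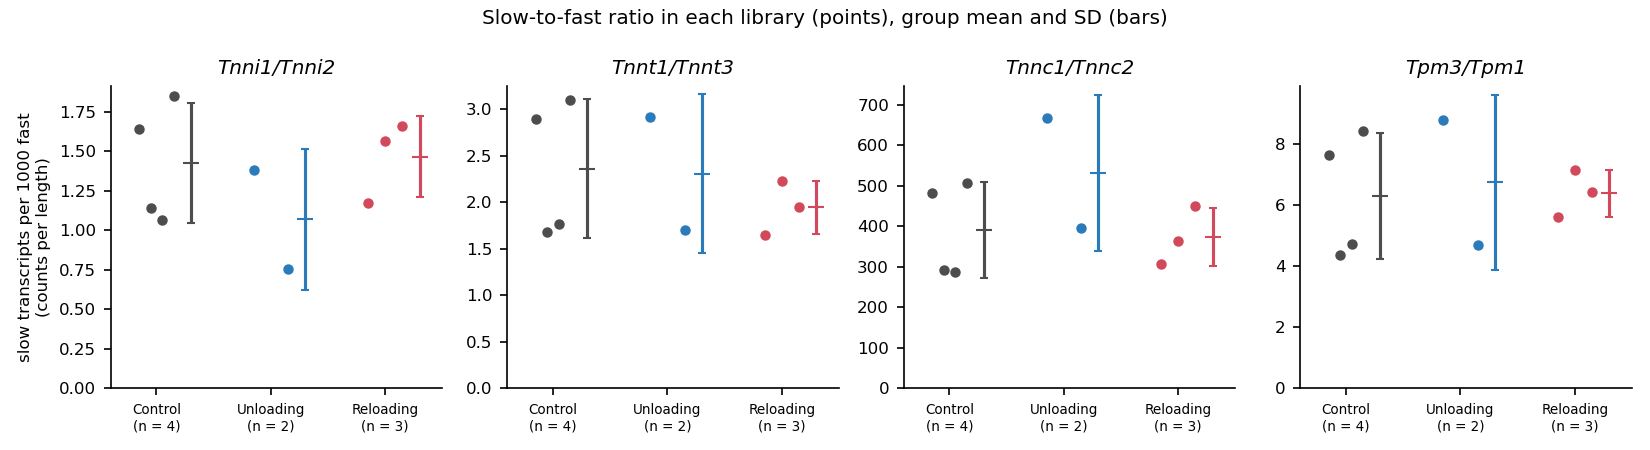
Slow transcripts per 1000 fast transcripts, as counts per length (vertical axes, starting at 0), in each library (points) with group mean and SD (bars) for 4 Control, 2 Unloading and 3 Reloading libraries. The groups overlap in all 4 pairs, and Control splits into 2 high and 2 low libraries. The *Tnnc1*/*Tnnc2* panel carries the undercounting of *Tnnc2*.

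Because the slow members followed *Myh7* so closely, each was also divided by it within a library, and the fast members by *Myh4*, the heavy chain of the fastest fibres. *Tpm2* was divided by *Tpm1*. These ratios were chosen after the values were seen, so they are described with no test. They are counts per length and library scaling cancels in them.

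Slow troponin T against *Myh7* was lower in Reloading than in any other library. *Tnnt1* per *Myh7* was 1.79, 1.91, 2.05 and 1.68 in Control, 1.69 and 1.77 in Unloading and 1.06, 1.21 and 1.25 in Reloading. The spread that covered Control and Unloading in CPM was thus narrow in the ratio, and the log2 difference was -0.56 ± 0.08 (SE) from Unloading and -0.66 ± 0.10 from Control. *Tpm3* per *Myh7* moved alike, at 0.905 to 1.13 in Control, 0.949 and 0.995 in Unloading and 0.697 to 0.821 in Reloading. Slow troponin I differed from both. *Tnni1* per *Myh7* was 0.430, 0.576, 0.560 and 0.442 in Control and already 0.324 and 0.321 in Unloading, with 0.309, 0.368 and 0.440 in Reloading. The 2 Unloading libraries lay below every Control library (log2 difference -0.63 ± 0.11), while Reloading overlapped with both. *Tnnc1* per *Myh7* was 2.48 to 2.73 in Control, 2.12 and 2.31 in Unloading and 1.58 to 2.21 in Reloading. Such a ratio shows unequal change of its 2 genes. *Myh7* itself differed by -0.40 ± 0.27 in Reloading against Unloading (edgeR adjusted p = 0.267).

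Relative to fast myosin, the fast members other than *Tnnc2* were lower in Reloading. Under TMM scaling *Myh4* fell by 0.33 on the log2 scale in Reloading against Unloading (SE 0.09, edgeR adjusted p = 0.00855). Its value under library totals is not given here. *Tnni2* per *Myh4* was 0.758, 0.753, 0.733 and 0.664 in Control, 0.710 and 0.685 in Unloading and 0.516, 0.593 and 0.559 in Reloading, with no overlap between Reloading and the rest. The log2 difference of this ratio between Reloading and Unloading was -0.33 ± 0.06 for *Tnni2*, -0.37 ± 0.05 for *Tnnt3* and -0.33 ± 0.08 for *Tpm1*. *Tnnc2*, which is undercounted, was 0.0132 to 0.0148 per *Myh4* in Control, 0.00942 and 0.00963 in Unloading and 0.0101 to 0.0142 in Reloading, low in Unloading. The beta-to-alpha ratio ordered the groups differently from the levels. *Tpm2* per *Tpm1* was 0.493, 0.546, 0.539 and 0.510 in Control, 0.275 and 0.320 in Unloading and 0.425, 0.372 and 0.365 in Reloading. It was thus lowest in Unloading and between the others in Reloading, where both genes were low, and the 3 groups did not overlap.

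**Figure D5:**
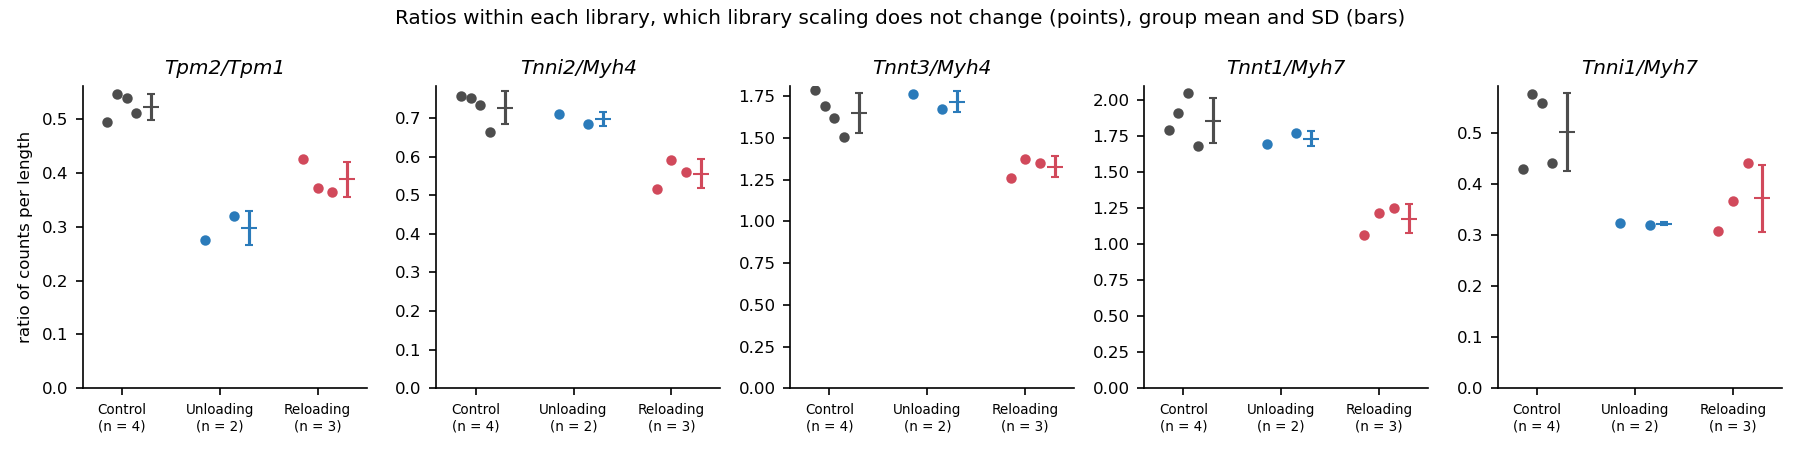
Ratios of counts per length within a library (vertical axes, starting at 0) for 4 Control, 2 Unloading and 3 Reloading libraries (points), with group mean and SD (bars). *Tpm2*/*Tpm1* is lowest in Unloading, *Tnni2*/*Myh4*, *Tnnt3*/*Myh4* and *Tnnt1*/*Myh7* are lowest in Reloading, and *Tnni1*/*Myh7* is already low in Unloading.

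Other thin filament genes moved in both directions. Of 18 partners listed, 16 were tested, and 7 rose and 4 fell in Reloading against Unloading (median log2 fold change 0.14). The risers were led by *Xirp1* (4.17 ± 0.21, edgeR adjusted p = 4.96e-09), an actin-binding repeat protein, *Klhl40* (2.23 ± 0.17), a kelch protein that stabilises thin filament proteins, *Tpm4* (1.60 ± 0.10), a cytoskeletal tropomyosin, and *Actc1* (1.15 ± 0.24), cardiac actin. Those that fell were led by *Tmod4*, which caps the pointed end of the filament (-0.69 ± 0.07), *Capza2* (-0.66 ± 0.08), of the barbed-end capping protein, and *Neb* (-0.52 ± 0.10), the filament's ruler. In Unloading against Control, 0 rose and 3 fell (median -0.07), namely *Actc1* (-2.01 ± 0.24), *Kbtbd13* (-0.76 ± 0.17) and *Acta1* (-0.68 ± 0.09), and at an unadjusted p under 0.05 in edgeR 2 were higher, against 0 calls with DESeq2. *Acta1*, the skeletal actin on which the members lie, had 28117 ± 2559 CPM (SD, n = 4) in Control, 17524 ± 1571 (n = 2) in Unloading and 15860 ± 839 (n = 3) in Reloading, lower already in Unloading like *Tpm2*. In Reloading against Control 6 rose and 7 fell (median -0.10). Under library totals 9 rose and 3 fell in Reloading against Unloading, and 8 rose and 5 fell in Reloading against Control. Of all genes tested, 18.5% rose and 19.0% fell in Reloading against Unloading under TMM scaling. The shares were 4.40% and 5.50% in Unloading against Control and 22.1% and 21.3% in Reloading against Control. Each list count here and below is to be read beside these shares.

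Genes of the thick filament, calcium handling and metabolism that mark fast fibres fell together with the fast members. Of 16 such genes, 13 fell and 0 rose in Reloading against Unloading (median -0.52), with 0 risers also at an unadjusted p under 0.05 in edgeR and in DESeq2. Under library totals 8 fell and 1 rose. *Mylk2*, the myosin light chain kinase of skeletal muscle (-0.91 ± 0.11), *Actn3*, the fast alpha-actinin (-0.73 ± 0.09), and *Myoz1*, a Z-disc protein (-0.67 ± 0.08), fell most. In Unloading against Control 4 rose, among them *Actn3* (0.61 ± 0.08) and *Atp2a1*, the fast calcium pump (0.33 ± 0.07), and 3 fell, *Myh2* (-0.93 ± 0.18), *Pgam2* (-0.69 ± 0.11) and *Myl1* (-0.42 ± 0.09). In Reloading against Control 14 fell and 0 rose (median -0.40), again with 0 risers at an unadjusted p under 0.05 and in DESeq2, and under library totals 7 fell and 0 rose. Of 14 slow-fibre genes tested, 3 rose and 2 fell in Reloading against Unloading (median -0.24), where 18.5% of all genes rose and 19.0% fell. The slow-fibre risers were led by *Csrp3*, a stretch-responsive LIM protein (4.04 ± 0.31). In Unloading against Control 0 rose and 4 fell (median -0.11), *Myl3* (-1.23 ± 0.10), *Myl2* (-1.07 ± 0.25), *Ckmt2* (-0.91 ± 0.10) and *Mb* (-0.44 ± 0.11), with 0 risers at an unadjusted p under 0.05 in edgeR or in DESeq2. In Reloading against Control 2 rose and 6 fell (median -0.27). Under library totals 3 rose and 2 fell in Reloading against Unloading, and 2 rose and 5 fell in Reloading against Control.

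Among 22 regulators of fibre type, 6 rose and 5 fell in Reloading against Unloading (median 0.17), 0 rose and 5 fell in Unloading against Control (median -0.09) and 8 rose and 8 fell in Reloading against Control (median -0.09). *Rcan1*, an inhibitor and target of calcineurin (2.33 ± 0.16), *Vgll2*, a TEAD cofactor (1.44 ± 0.14), and *Myog* (1.40 ± 0.23) and *Myod1* (1.30 ± 0.18), factors that bind E-boxes, rose in Reloading against Unloading. The 0 risers in Unloading against Control stayed 0 at an unadjusted p under 0.05 and in DESeq2. *Tbx15* (-0.92 ± 0.12), a factor of glycolytic fibres, *Mef2c* (-0.90 ± 0.09) and *Sox6* (-0.48 ± 0.10), a repressor of slow genes, fell in Reloading against Unloading. Under library totals 11 rose and 2 fell in Reloading against Unloading, and 9 rose and 5 fell in Reloading against Control. Of 12 developmental and regeneration genes, 5 rose and 1 fell in Reloading against Unloading (median 0.13), led by *Ankrd1* (4.52 ± 0.24), 2 rose and 2 fell in Unloading against Control (median 0.19), and 5 rose and 0 fell in Reloading against Control (median 0.25; 0 fell at an unadjusted p under 0.05 and in DESeq2). Under library totals 6 rose and 0 fell in the first of these comparisons, and 7 rose and 0 fell in the last.

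Markers of other cell types moved with reloading too. The summed level of 10 macrophage markers was 81.5 to 101.6 CPM in Control, 83.9 and 85.3 in Unloading and 170 to 193 in Reloading, and 9 of the 10 rose in Reloading against Unloading. For 10 endothelium markers it was 205 to 241, 207 to 212 and 343 to 429 CPM, also with 9 risers. Of 9 smooth muscle markers tested 7 rose, with sums of 947 to 1034, 809 to 817 and 897 to 1065 CPM. *Synpo2*, which was not called, made up most of these sums, with means of 821, 683 and 758 CPM in the same order. Of 10 fibroblast markers 4 rose and 2 fell, with sums of 653 to 960, 705 to 709 and 861 to 1120 CPM. Under library totals 10 macrophage, 10 endothelium, 8 smooth muscle and 6 fibroblast markers rose in Reloading against Unloading, and 2 fibroblast markers fell. The 10 skin markers, of which 0 were called by edgeR or DESeq2 and 4 were lower in Unloading against Control at an unadjusted p under 0.05, summed to 317 CPM in Control 2 and 148 in Reloading 1 and to at most 8.06 elsewhere. Their part in the drop of the fast members was not tested.

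Genes whose pattern was most like that of the troponins were looked up among 9864 genes with a mean log2 CPM of at least 2, by Pearson r over the 9 libraries. Nearest to the mean of *Tnni2*, *Tnnt3* and *Tnnc2* were *Hsd17b10*, *Ndufb9*, *Atp5g2*, *Nudt3* and *Mpc1-ps* (r from 0.996 to 0.990). After centring on group means they were *Dand5*, *Rnf10*, *Rcsd1*, *Ndufaf8* and *Slc9a2* (0.963 to 0.946). Nearest to the mean of *Tnni1*, *Tnnt1* and *Tnnc1* were *Ergic2*, *Prkar2a*, *Cops3*, *Ppp2r5e* and *Brwd1* (0.965 to 0.946), and after centring *Cops3*, *Mindy2*, *Cfl2*, *Cep85l* and *Trpm7* (0.987 to 0.977). Nearest to *Tnnt2*, at its few read pairs, were *Rpl5*, *Ctdspl2*, *Max*, *Pak1ip1* and *Ipo9* (0.940 to 0.903), and after centring *Trmt1*, *Shroom4*, *Gpd2*, *Ddx18* and *Rpl17* (0.980 to 0.961). These are the highest values of a search and a description only, and the 9 points share library and scaling.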

How the data were processed

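Polyadenylated RNA of 9 gastrocnemius libraries was sequenced. The authors aligned reads with STAR 2.7.3a to GRCm38.p6 and deposited raw counts of read pairs per gene from featureCounts, unstranded, with Ensembl release 102. The study's methods describe single reads and the labels paired ends. The tables of the authors' DESeq2 comparisons hold fold changes and p-values and served for symbols only.

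Genes passing filterByExpr (minimum count 10, minimum total 15) numbered 14851. The counts of all 9 libraries were TMM-scaled and fitted in edgeR 4.0.16 (R 4.3.3) with group as the only term, with Benjamini-Hochberg adjustment over all of these genes in each comparison and calls at an adjusted p under 0.05. The biological coefficient of variation over all genes was 0.0927. The SE came from the F statistic. Log2 CPM used a prior count of 2. Ratios of counts per length used a pseudocount of 0.5 for the slow-to-fast pairs, and none for the ratios to *Myh4*, *Myh7* and *Tpm1*, and the former were tested by exact permutation over libraries. Code was tested on simulated data. Libraries are named by the number in their titles.

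The members and gene lists were chosen with earlier results of these data known. All members were named. From a list, up to 4 called genes with the largest log2 fold change in each direction were named. *Acta1*, *Myh4*, *Myh7*, *Myl2*, *Mb*, *Ckmt2*, *Pgam2*, *Phka1* and *Synpo2* were also singled out after their values were seen. Same-numbered libraries were checked for pairing by correlating deviations from group means. By the number in the titles r was -0.201 to 0.0752. By the number in the descriptions the 3 Control and Reloading pairs had r of 0.361, 0.143 and 0.155. The other same-numbered pairs had at most 0.0752. The 0.361 was that of Control 2 and Reloading 1, the libraries with skin transcripts. Libraries of different number reached 0.106 and 0.117 (Control 1 with Reloading 2 and 3). These values do not settle whether any libraries are paired. Alternatives were DESeq2 1.42.0, RLE scaling, library totals, no filter, a robust fit, 2 groups only, each library left out, both libraries with skin transcripts left out, and replicate blocks. Ratios to *Myh4*, *Myh7* and *Tpm1* were added after the data were seen.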

Additional observations from a re-analysis of the deposited data

Results flagged for a closer look

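Within Control, 1 of the 4 libraries stood apart from the others for 2 members, by the gap to its nearest neighbour as a share of the group's range. For *Tnnt3* it was Control 2, the highest at 28888 CPM, with a gap of 0.834 of the range. For *Tnnt2* it was Control 1, the highest at 2.93 CPM, with a gap of 0.890 of the range. Both passed Dixon's critical value for 4 values. Of 14 sets of Control values examined, chance passes about 1 in 20. Control 2 is also the library with the most *Krt2*. The range of *Tnnt3* within Control was small beside the drop in Reloading, where the highest library had 19565 CPM.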

How the results depend on the processing

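Of 540 member values under the alternatives tested, 495 kept their side of the threshold and their direction where called, 40 lost a call, 5 gained one and 0 called values turned. The calls lost were those of *Tnni1*, *Tnnt1*, *Tnnc1*, *Tpm3*, *Tnnc2* and the Reloading against Unloading step of *Tpm2*. Those gained were *Tnnc1* in Reloading against Unloading with no filter (-0.58), with 2 groups only (-0.55) and with the description block (-0.52), *Tnni1* in Unloading against Control with no filter (-0.42) and *Tnnt2* under library totals. The cause was not tested. With library totals the members that fell numbered 4, 2 and 6 in Reloading against Unloading, Unloading against Control and Reloading against Control, and with a robust fit 4, 2 and 5.

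Leaving out 1 library at a time, genes called in Unloading against Control ranged from 121 (without Unloading 1) to 1518, with 949 without Control 3, against 1470 with all libraries. *Tpm2* fell in each of these, and *Tnnc2* in all but the fit without Unloading 1. In Reloading against Unloading the range was 3934 to 5654 and in Reloading against Control 5267 to 6506.

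With the replicate block by title numbers, not known to pair the libraries, 5108, 1042 and 5705 genes were called in Reloading against Unloading, Unloading against Control and Reloading against Control, and *Tnni1* (-0.45), *Tnnc1* (-0.41) and *Tpm3* (-0.36) lost their call in the last. With the block by description numbers, not known to pair the libraries, 6632 genes were called there. As without it, 9 of the 10 members fell. The block changed no other call of a member than these and that of *Tnnc1*. As raw counts, without division by length, the slow share was 0.341%, 0.256% and 0.351% for troponin I in Control, Unloading and Reloading, 0.327%, 0.320% and 0.270% for troponin T, and 33.2%, 40.2% and 32.5% for troponin C. Divided by *Tpm1* in each library, *Tpm2* was 0.38 higher on the log2 scale in Reloading than in Unloading, where its level was 0.28 lower. That follows from the ratio, since *Tpm1* fell by more.

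With 2 Unloading libraries, ratio tests against Unloading could not reach 0.05. *Tnnt2* rests on 24 to 48 read pairs per library, and *Tnnc2* on the part of its exons not shared with *Ube2c*.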
